A study of Mus musculus with 116 samples.

Results

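The 9 genes described here belong to the epithelium of the blastocyst and its fluid transport, and they were followed from the oocyte to the inner cell mass (ICM). They are the keratins Krt8 and Krt18, the fatty acid binding protein Fabp3, the sodium pump subunit Atp1b1, the water channels Aqp3 and Aqp8, the tight junction genes Cldn4 and Tjp1, and the adherens junction gene Cdh1. They were chosen by symbol as genes of epithelial structure and fluid transport, out of 24028 gene symbols shared by the deposited tables. Each of the 9 was found in every table. Per the series design, the embryos were wild-type and came from C57BL/6N females crossed with PWK males; the strain of the oocytes is not stated there. Females were 8 weeks old and had been given PMSG and hCG. RNA was measured in 1 library of MII oocytes, taken 13 h after hCG, 1 of PN5 zygotes, the late pronuclear stage, at 30 h, and 1 of early 2-cell embryos at 36 h. At the late 2-cell stage there was 1 mTBE library and 1 control library, both from zygotes collected at 23 h, held for 14 h in KSOM medium and cultured for 12 h after release at entry into the 2-cell stage. During the 14 h the mTBE embryos were in 60 uM DRB, which blocks productive elongation by RNA polymerase II, and the control embryos in 0.1% DMSO. The label mTBE is not spelled out in the labels. It was tied to the DRB treatment by the deposited column, which is named for DRB. These 5 libraries each pooled about 100 oocytes or embryos and hold total RNA after removal of ribosomal RNA. The last 2 libraries came from the ICM of blastocysts at 98 h and were made by Smart-seq2, which captures polyadenylated RNA. The way the ICM was isolated and the number of cells pooled are not stated in the sources used here.

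The trophectoderm is the first epithelium of the mouse embryo. Its cells seal the outer surface with cadherin adhesions and tight junctions, stiffen it with filaments of keratin 8 paired with keratin 18, and pump sodium across it, so that water follows through aquaporins and the blastocyst cavity fills. The ICM lies inside this layer and gives rise to the epiblast and the primitive endoderm. Krt8 and Krt18 are known as genes of the trophectoderm layer, whereas Cdh1 and Atp1b1 products are also made by the oocyte and cleaving embryo.

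The promoters of 5 of the genes are shown because these genes were under 1 FPKM in MII and PN5, where FPKM is a count of sequenced fragments relative to transcript length and library size. Each window is the 250 bases before the RefSeq start of the gene, 5′ to 3′ on the strand of the gene, in build GRCm38.p6. Capitals mark matches, on either strand, to short motifs of factors active in the early embryo: GGAATG for the Tead family, AGATAA for the Gata family, GCCNNNGGC for the Tfap2 family, CCCACCC for the Klf family, and the TATA box TATAAA. The windows are chr15:102004343-102004592 on the minus strand for Krt8, chr15:102027966-102028215 on the plus strand for Krt18, chr4:41098184-41098433 on the minus strand for Aqp3, chr4:130308488-130308737 on the plus strand for Fabp3 and chr7:123462044-123462293 on the plus strand for Aqp8.
Krt8: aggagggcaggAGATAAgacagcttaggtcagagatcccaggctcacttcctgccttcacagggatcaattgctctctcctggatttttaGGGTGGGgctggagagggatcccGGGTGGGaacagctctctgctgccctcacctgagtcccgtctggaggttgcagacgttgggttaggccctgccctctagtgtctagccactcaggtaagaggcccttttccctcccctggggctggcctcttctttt
Krt18: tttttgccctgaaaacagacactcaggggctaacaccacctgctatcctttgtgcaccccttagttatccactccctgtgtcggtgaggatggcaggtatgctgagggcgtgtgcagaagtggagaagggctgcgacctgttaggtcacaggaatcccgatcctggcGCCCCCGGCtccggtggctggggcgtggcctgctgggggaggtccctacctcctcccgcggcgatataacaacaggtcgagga
Aqp3: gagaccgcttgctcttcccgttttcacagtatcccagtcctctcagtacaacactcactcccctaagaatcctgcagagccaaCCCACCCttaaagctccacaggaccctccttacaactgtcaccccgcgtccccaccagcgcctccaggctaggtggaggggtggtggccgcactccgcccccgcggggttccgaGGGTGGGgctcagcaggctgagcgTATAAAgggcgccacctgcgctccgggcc
Fabp3: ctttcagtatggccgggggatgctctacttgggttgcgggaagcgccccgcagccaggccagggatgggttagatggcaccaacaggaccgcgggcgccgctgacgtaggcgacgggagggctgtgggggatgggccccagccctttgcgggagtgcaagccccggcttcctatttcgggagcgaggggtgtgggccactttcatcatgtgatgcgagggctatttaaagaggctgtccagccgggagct
Aqp8: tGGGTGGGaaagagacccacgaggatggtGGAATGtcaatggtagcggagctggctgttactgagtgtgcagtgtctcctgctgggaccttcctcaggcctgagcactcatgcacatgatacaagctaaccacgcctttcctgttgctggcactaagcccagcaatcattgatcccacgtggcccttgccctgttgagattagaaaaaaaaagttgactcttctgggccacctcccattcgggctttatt
Krt8 held 1 Gata match and 2 Klf matches, Krt18 held 1 Tfap2 match, Aqp3 held 2 Klf matches and a TATA box, Aqp8 held 1 Tead match and 1 Klf match, and the Fabp3 window held none of these letters. Tjp1 held 1 Klf match, the Atp1b1 and Cldn4 windows held no match, and Cdh1 was not matched to a window. No motif recurred in most of the set: the Klf letters were in 4 of 8 windows and each other motif in 1 of 8. Of all 32851 windows of this length, 15.8% held the Klf letters, 12.6% the Tead letters, 13.7% the Tfap2 letters, 12.4% the TATA box and 9.99% the Gata letters. A match describes the letters and is not evidence of binding. The G and C content of the 5 windows ran between 52.4% in Aqp8 and 64.8% in Fabp3, against a median of 52.4% over all windows.

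The labels were first set against marker genes. The MII library carried oocyte genes at a summed 5680 FPKM, among them Gdf9, a growth factor of the oocyte, at 1411 FPKM, and the late 2-cell libraries carried 2-cell genes at a summed 194 FPKM in mTBE and 389 FPKM in control. In the ICM libraries the pluripotency list was at 1 FPKM or more for 12 of 12 genes, against 11 of 12 in late 2-cell control. Nanog, a factor of the epiblast, was at 105 and 133 FPKM, against 1.84 FPKM in control. Sox2, another epiblast factor, was at 5.25 and 2.85 FPKM, against 10.1 FPKM in control. The primitive endoderm list was at 1 FPKM or more for 12 of 14 and 10 of 14 genes, against 11 of 14 in control. Its summed level was 138 and 111 FPKM, against 106 FPKM in control. In replicate 1 its defining factors Gata6, Gata4, Sox17 and Pdgfra were at 24.5, 2.51, 2.54 and 5.03 FPKM. In replicate 2 they were at 32.1, 0.581, 1.42 and 3.97 FPKM, and in control at 2.54, 46.1, 1.92 and 2.59 FPKM. Sox7 and Foxa2 were listed at 0 in replicate 1. The trophectoderm list was also present in the ICM libraries, at 1 FPKM or more for 16 of 16 genes in both, against 14 of 16 in control. Its defining factors Cdx2, Gata3, Eomes and Elf5 were at 31.4, 145, 24.7 and 14.0 FPKM in replicate 1 and at 22.1, 127, 21.7 and 3.28 FPKM in replicate 2. In control these 4 factors were at 2.41, 2.60, 7.44 and 0.165 FPKM. Genes listed for the inner lineages and for the outer layer were thus present in the preparation labelled ICM. Most of them were also at 1 FPKM or more in control, so presence alone does not tell the ICM from the late 2-cell stage. The part of outer cells in the levels of the 9 genes there was not tested, and in these pooled samples fewer cells of a type and less RNA per cell cannot be told apart.

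**Figure D1:**
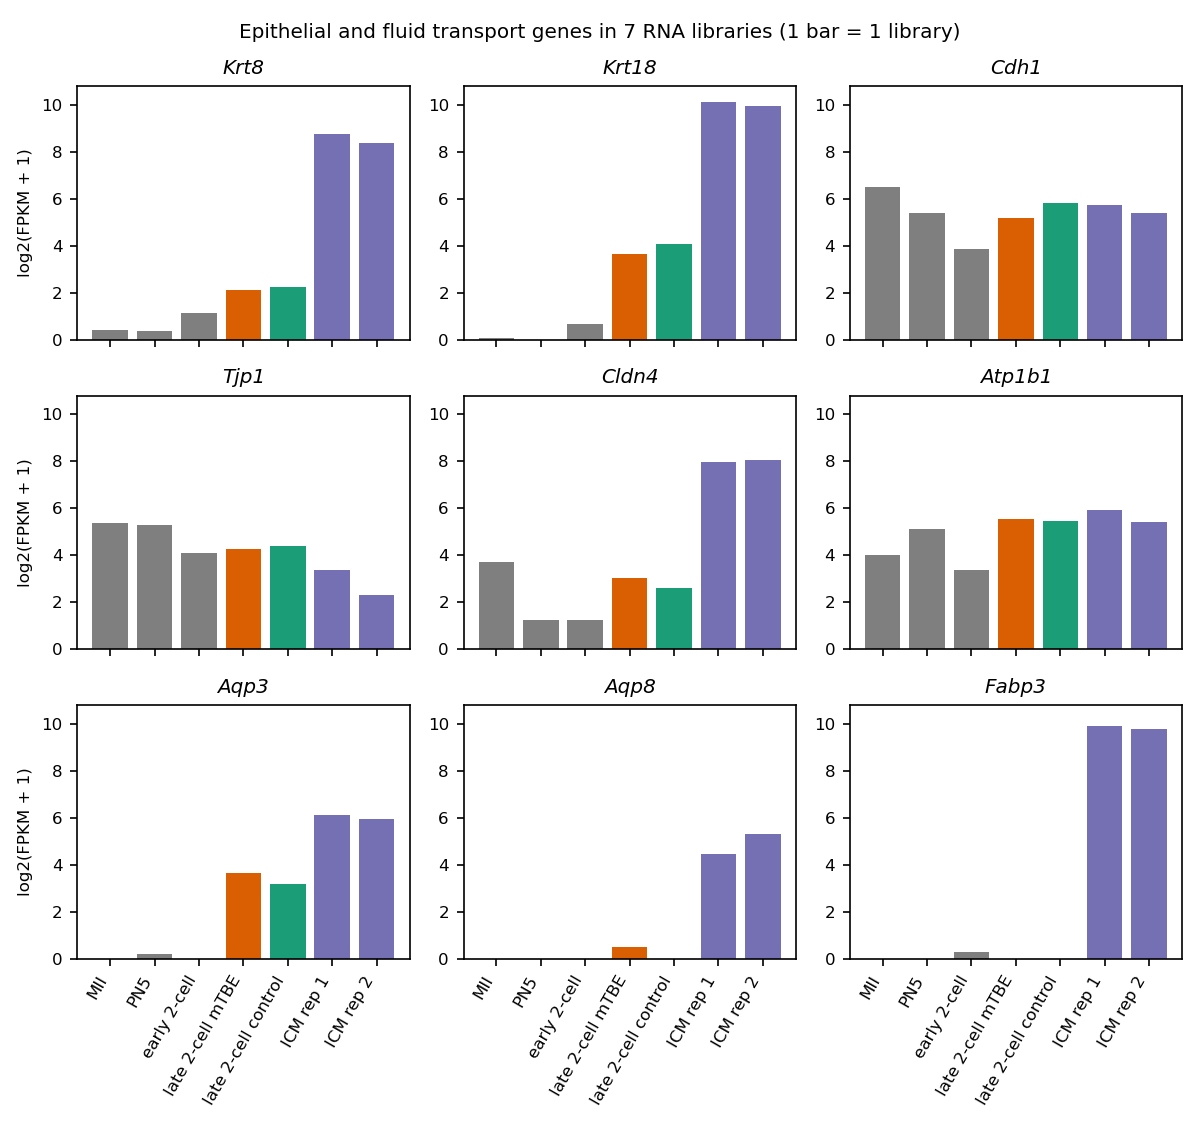
Level of each of the 9 genes, 1 panel per gene, as log2(FPKM + 1) on the vertical axis; each bar is 1 library, in the order MII, PN5, early 2-cell, late 2-cell mTBE, late 2-cell control and ICM replicates 1 and 2. The bars of Krt8, Krt18, Cldn4, Aqp3, Aqp8 and Fabp3 were tallest in the 2 ICM libraries, those of Cdh1 in the ICM lay between the 2 late 2-cell bars, those of Atp1b1 lay on either side of them, and those of Tjp1 were shortest there.

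The first question was when each gene appears. The study sampled 5 stages, and a gene was taken as present from the first stage at which it reached 1 FPKM, with the control library standing for the late 2-cell stage and the mean of both libraries for the ICM. Atp1b1, Cldn4, Cdh1 and Tjp1 were already present in the MII oocyte, Krt8 was first present in the early 2-cell embryo, Krt18 and Aqp3 in the late 2-cell embryo, and Fabp3 and Aqp8 in the ICM preparation. The first appearance of 2 of 9 genes at the late 2-cell stage and of 2 of 9 in the ICM compares with 17.2% and 4.90% of the 14308 genes that reached 1 FPKM at some stage; 3.04% of those genes were first present in the early 2-cell embryo, 4.07% in PN5 and the other 70.8% in MII. By a stricter rule, a first stage 4-fold or more above the oocyte in log2(FPKM + 1), Krt18 and Aqp3 again fell in the late 2-cell embryo, where 12.4% of genes did, and Krt8, Cldn4, Fabp3 and Aqp8 fell in the ICM, also with 12.4% of genes. Atp1b1, Cdh1 and Tjp1 did not reach that step at any stage, nor did 74.0% of genes. The 1 FPKM added before the logarithm holds down the step of low genes. Krt8 was at 0.323 FPKM in MII and already at 3.76 FPKM in late 2-cell control, so its place under this rule depends on that setting. No other added value was tried for this rule. By library, the number of the 9 genes at 1 FPKM or more was 4 in MII, 4 in PN5, 5 in early 2-cell embryos, 7 in late 2-cell mTBE, 7 in late 2-cell control and 9 in each ICM library. Over all genes the share at 1 FPKM or more was 42.2% in MII, 41.6% in PN5, 39.6% in early 2-cell embryos, 54.2% in mTBE, 51.9% in control, and 40.1% and 39.1% in the ICM libraries. The summed level of the 9 genes was 158 FPKM in MII, 114 in PN5, 42.0 in early 2-cell embryos, 133 in mTBE, 152 in control, and 2980 and 2661 in the ICM libraries. The sum was lower in both late 2-cell libraries than in MII, although more of the 9 genes were present.

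Krt8 and Krt18 encode the type II and type I keratins that pair into the filaments of simple epithelia. Krt8 was at 0.323 FPKM in MII, 0.280 in PN5, 1.17 in early 2-cell embryos, 3.29 in mTBE, 3.76 in control, and 437 and 335 in the ICM libraries. Krt18 was at 0.0609 FPKM in MII, listed at 0 in PN5, at 0.599 in early 2-cell embryos, 11.4 in mTBE, 15.6 in control, and 1116 and 991 in the ICM libraries. Both keratins were low through the early 2-cell stage, intermediate in both late 2-cell libraries and high in both ICM libraries. Krt18 was below Krt8 at the earliest stages and above it from the late 2-cell stage on: the ratio of Krt18 to Krt8 FPKM was 0.189 in MII, 0.514 in early 2-cell embryos, 3.47 in mTBE, 4.14 in control, and 2.56 and 2.96 in the ICM libraries. The ratios in MII and early 2-cell embryos rest on 1 library each, with Krt18 under 1 FPKM, where no counting error can be given. In the ICM preparation Krt18 was the 43rd and the 64th most abundant of the 24028 symbols. The other simple keratins did not share this level, with Krt19 at 1.90 and 0.739 FPKM and Krt7 at 2.24 and 2.77 FPKM in the ICM libraries. Krt19 stood slightly higher at the late 2-cell stage, at 3.72 FPKM in mTBE and 2.32 FPKM in control, and was listed at 0 in MII, PN5 and the early 2-cell. The RefSeq table names a pseudogene of Krt8, and reads that it may share with Krt8 could not be separated here.

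Fabp3 encodes a cytoplasmic carrier of fatty acids, best known from heart and skeletal muscle. It was listed at 0 in MII, PN5, mTBE and control, was at 0.209 FPKM in early 2-cell embryos, and was at 970 and 886 FPKM in the ICM libraries. No other of the 9 genes combined such a low level through the late 2-cell stage with such a high level in the ICM preparation, where Fabp3 was the 55th and the 65th most abundant symbol. Fabp5, the epidermal member of the same family, was also higher there, at 249 and 265 FPKM in the ICM libraries, against 17.4 FPKM in late 2-cell control, but it was present at every stage, with 36.5 FPKM in MII. Fabp3 also has a named pseudogene.

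Cdh1, Cldn4 and Tjp1 represent the junctions that hold and seal the epithelium. Cdh1 encodes E-cadherin, the adhesion protein of compaction, and was at 90.4 FPKM in MII, 40.9 in PN5, 13.4 in early 2-cell embryos, 35.0 in mTBE, 55.9 in control, and 52.9 and 40.5 in the ICM libraries. Its highest level was in the oocyte and its lowest in the early 2-cell embryo, and both ICM values lay between the values of the 2 late 2-cell libraries. Cldn4 encodes a claudin, a strand protein of tight junctions, and was at 12.2 FPKM in MII, 1.39 in PN5, 1.37 in early 2-cell embryos, 7.21 in mTBE, 5.17 in control, and 247 and 263 in the ICM libraries. Cldn4 was therefore low in PN5 and the early 2-cell embryo between a moderate level in the oocyte and a high level in the ICM preparation. Tjp1 encodes ZO-1, the scaffold beneath tight junctions, and was at 40.0 FPKM in MII, 38.4 in PN5, 15.9 in early 2-cell embryos, 18.4 in mTBE, 19.8 in control, and 9.34 and 3.89 in the ICM libraries. The scaffold and the strand protein of the same junction thus stood in opposite order: the ratio of Cldn4 to Tjp1 FPKM was 26.4 and 67.6 in the ICM libraries, against 0.262 in control.

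Atp1b1, Aqp3 and Aqp8 serve the ion and water flow that fills the blastocyst cavity. Atp1b1 encodes a beta subunit of the sodium pump, needed to bring the pump to the membrane, and was at 15.1 FPKM in MII, 33.3 in PN5, 9.31 in early 2-cell embryos, 46.2 in mTBE, 43.4 in control, and 59.9 and 42.2 in the ICM libraries. Its FPKM was lowest in the early 2-cell embryo, but its percentile among all symbols of the library was lower in MII, at 82.6 against 83.7. The ICM libraries did not stand apart from the late 2-cell libraries. Another beta subunit gene, Atp1b3, gave ratios of Atp1b1 to Atp1b3 between 0.264 in MII and 1.07 in ICM replicate 1. Aqp3 encodes a channel for water and glycerol and was listed at 0 in MII, at 0.144 FPKM in PN5, listed at 0 in early 2-cell embryos, and at 11.4 in mTBE, 8.08 in control, and 68.3 and 61.0 in the ICM libraries. Aqp8 encodes a channel for water and ammonia and was listed at 0 in MII, PN5, the early 2-cell and control, at 0.414 FPKM in mTBE, and at 21.2 and 38.9 FPKM in the ICM libraries. The aquaporin of highest level was not the same at each stage: Aqp9, a channel that also passes small solutes, led the family at 46.5 FPKM in mTBE and 48.1 FPKM in control, while Aqp3 led it in both ICM libraries, where Aqp9 was at 16.7 and 15.3 FPKM.

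**Figure D2:**
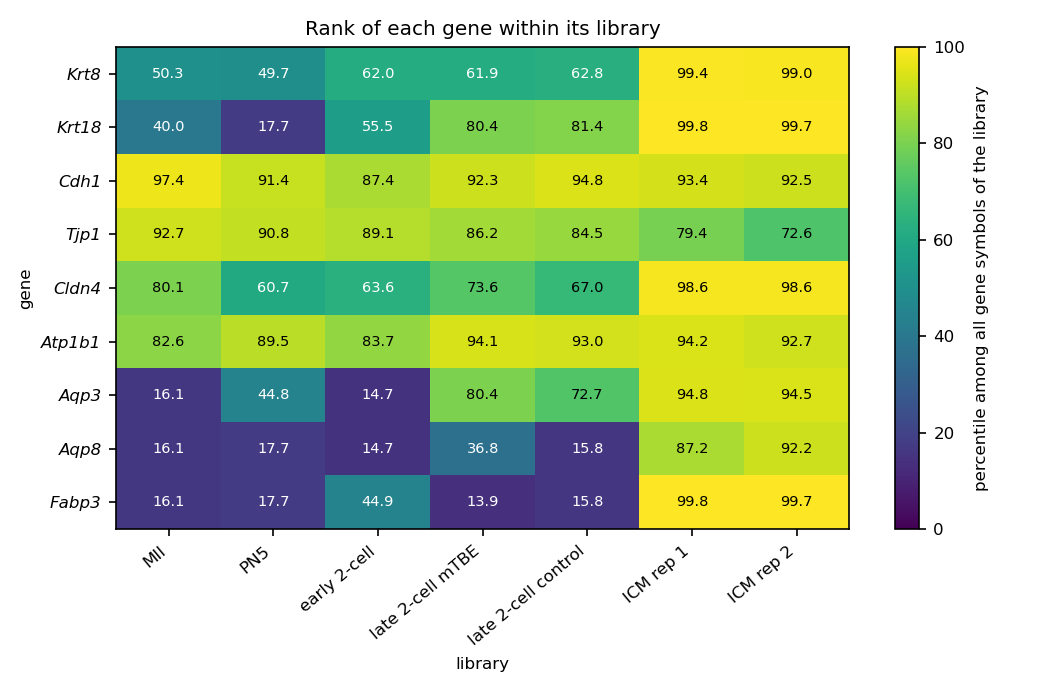
Percentile of each of the 9 genes (rows) among all gene symbols of the same library (columns), printed in each cell and shown as colour, with 100 the most abundant; genes listed at 0 share a rank near the bottom. In the ICM columns Krt8, Krt18, Cldn4 and Fabp3 lay at the 98.6th percentile or above, while Tjp1 lay at 79.4 and 72.6, its lowest positions in any library.

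Ranks within a library do not depend on how separately made tables were scaled. Those in the ICM libraries still carry the difference in library protocol, which cannot be told apart from stage. By rank, Krt8, Krt18, Cldn4 and Fabp3 were among the top 5% of symbols in both ICM libraries, and no gene of the set was among the top 5% in PN5, the early 2-cell or either late 2-cell library. Cdh1 was in that range in MII, at the 97.4th percentile. Tjp1 stood at 92.7 in MII, 90.8 in PN5, 89.1 in early 2-cell embryos, 86.2 in mTBE, 84.5 in control, and 79.4 and 72.6 in the ICM libraries, a lower position at each later stage. Krt8 stood at 62.0 in the early 2-cell and at 61.9 in mTBE and 62.8 in control, about the same rank despite its higher FPKM in the late 2-cell libraries, whereas Krt18 stood at 55.5 in the early 2-cell and at 80.4 in mTBE and 81.4 in control.

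The steps between stages were then compared gene by gene. Differences are of log2(FPKM + 1). A gene was measured if any library compared had it at 1 FPKM or more, and a gene was called higher or lower at a difference of 1 or more, about 2-fold. With 1 library per group no step among the total RNA libraries has a replicate check, and no p-value was calculated. Comparisons that involve control, PN5 or MII share those libraries with each other and are not independent. The steps of MII, early 2-cell and ICM against other stages also cross tables that were normalized separately.

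In PN5 against MII, Atp1b1 was higher by 1.09, and Cldn4 and Cdh1 were lower, with differences of -2.46 and -1.13. Tjp1 did not reach the threshold, at -0.06. These were 1 of 4 measured genes higher and 2 of 4 lower, against 8.77% and 9.23% of all genes. The median gene at 5 FPKM or more shifted by 0.33. With this shift taken out the difference of Atp1b1 was 0.77 and it was not called, and the share of higher genes among all called genes was 20.9% in place of 48.7%. In the early 2-cell against MII, Cldn4, Cdh1 and Tjp1 were lower, with differences of -2.48, -2.67 and -1.28, which made 3 of 5 measured genes lower, against 28.8% of all genes, and 0 of 5 higher, against 3.98%. The median shift in this step was -0.57. With it taken out Cldn4 and Cdh1 were still lower, Tjp1 was not called and Krt8 was higher, at 1.05 in place of 0.71, and the share of higher genes among all called genes was 36.4% in place of 12.1%.

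In late 2-cell control against PN5, a comparison within 1 table, 4 of 7 measured genes were higher and 0 lower, against 30.5% and 17.0% of all genes. Krt8 was higher by 1.90, a 13.4-fold ratio of FPKM, Aqp3 by 2.99, a 56.2-fold ratio, and Cldn4 by 1.37, a 3.71-fold ratio. Krt18, listed at 0 in PN5 and at 15.6 FPKM in control, was also called higher. Of the genes already present in the oocyte, Cldn4 was thus called higher. The others did not reach the threshold, with Atp1b1 at 0.37, Cdh1 at 0.44 and Tjp1 at -0.92. The median of the 7 differences, Krt18 included, was 1.37, against 0.28 over all genes, and the median shift was -0.13. The stage and the culture in DMSO cannot be told apart in this step. In late 2-cell mTBE against PN5, which shares the PN5 library, 4 of 7 genes were higher, against 29.4% of all genes, with Krt18 listed at 0 in PN5, Krt8 at 1.75, Aqp3 at 3.44 and Cldn4 at 1.78. There Tjp1 was lower, at -1.02, against 17.7% of all genes, and it was not called once the median shift of -0.18 was taken out.

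In late 2-cell control against the early 2-cell, 6 of 7 measured genes were higher, against 49.6% of all genes, and 0 were lower, against 8.62%. Krt8 was higher by 1.14, Krt18 by 3.37, Atp1b1 by 2.11, Cldn4 by 1.38 and Cdh1 by 1.99, and Aqp3 was at 8.08 FPKM in control and listed at 0 in the early 2-cell. Tjp1 was at 0.30, and at -0.27 with the shift given next taken out. The median gene itself shifted by 0.60 in this step. With that shift taken out Krt8, at 0.68, and Cldn4, at 0.90, were not called, and the share of higher genes among all called genes was 70.6% in place of 85.2%.

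Setting mTBE against control at the late 2-cell stage addressed how these genes stood after transcription had been blocked through the zygote stage and released. None of the 7 measured genes differed by 2-fold, and 15.6% of all 13726 genes did. Fabp3 and Aqp8 were below 1 FPKM in both libraries. Aqp3 and Cldn4 stood somewhat higher in mTBE, with ratios of mTBE to control FPKM of 1.42 and 1.39, and Cdh1 and Krt18 somewhat lower, with ratios of 0.625 and 0.734. Krt8, Atp1b1 and Tjp1 had ratios of 0.876, 1.06 and 0.930. The median of the 7 differences was -0.10, against -0.05 over all genes. In lists of related genes, 0 of 5 keratins, 0 of 6 sodium pump genes and 0 of 6 desmosome genes passed the 2-fold rule, while 1 of 6 aquaporins was higher, 2 of 19 tight junction genes were higher and 1 lower, 1 of 11 adherens junction genes was higher and 1 lower, and 1 of 10 epithelial surface genes was higher and 2 lower. Of fatty acid binding proteins 2 of 5 were lower, of sodium and chloride entry genes 1 of 4 and of apical polarity genes 1 of 17, with none of these 3 lists holding a higher gene. Over all genes 5.57% were higher and 9.99% lower. The lower genes of these lists included Fabp4, the adipocyte member of its family, at 0.541 FPKM in mTBE and 6.09 FPKM in control, Epcam, an adhesion protein of epithelial cells, at 11.3 FPKM in mTBE and 34.4 FPKM in control, Cldn7 at 2.84 FPKM in mTBE and 8.75 FPKM in control, and Slc12a2, a carrier that brings sodium, potassium and chloride into the cell, at 23.0 FPKM in mTBE and 47.8 FPKM in control. No replicate check exists for any of these differences.

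**Figure D3:**
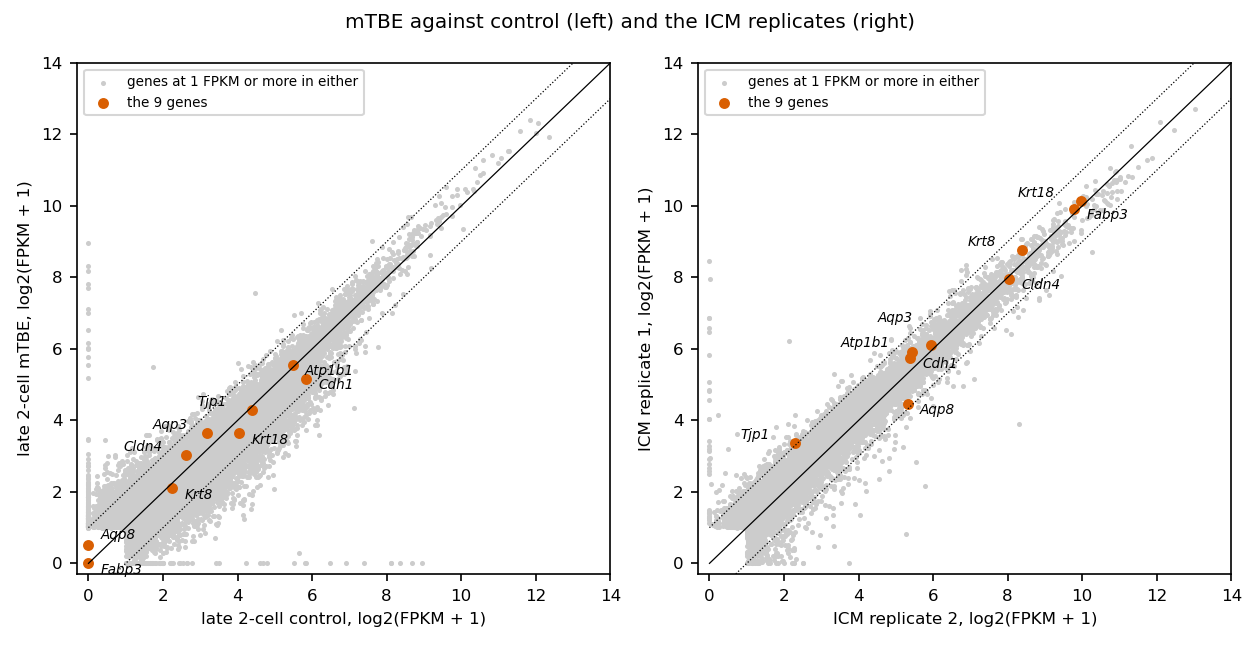
Left, log2(FPKM + 1) of late 2-cell mTBE (vertical) against late 2-cell control (horizontal); right, ICM replicate 1 (vertical) against replicate 2 (horizontal). Grey points are genes at 1 FPKM or more in either library, orange points the 9 genes, the solid line marks equal values and the dotted lines a 2-fold difference. All 9 genes lay between the dotted lines on the left, and on the right Tjp1 lay just past the upper one, at 1.08.

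The ICM replicates were the only pair of libraries of 1 group, and nothing in the labels says whether they came from separate litters. Of the 9 genes, 1 differed between them by the size rule, against 5.11% of 9983 genes: Tjp1 was higher in replicate 1 by 1.08. Aqp8 was next, at -0.84, followed by Atp1b1 at 0.50, Krt8 and Cdh1 at 0.38, Krt18 at 0.17, Aqp3 at 0.16, Fabp3 at 0.13 and Cldn4 at -0.09. The median size of the difference over all genes was 0.34. The mean levels in the ICM preparation were, in order, 1054 ± 87.8 FPKM for Krt18, 928 ± 59.1 for Fabp3, 386 ± 72.2 for Krt8, 255 ± 11.2 for Cldn4, 64.7 ± 5.15 for Aqp3, 51.0 ± 12.5 for Atp1b1, 46.7 ± 8.73 for Cdh1, 30.0 ± 12.5 for Aqp8 and 6.61 ± 3.85 for Tjp1 (SD, n = 2 each). The replicate values of neighbours in this order did not overlap for Fabp3 and Krt8, Krt8 and Cldn4, Cldn4 and Aqp3, Aqp3 and Atp1b1, Cdh1 and Aqp8, or Aqp8 and Tjp1. Those of Atp1b1 and Cdh1 overlapped, and the lower Krt18 value of 991 FPKM was close to the higher Fabp3 value of 970 FPKM. The nearest values were also close for Aqp3 and Atp1b1, at 61.0 and 59.9 FPKM, and for Cdh1 and Aqp8, at 40.5 and 38.9 FPKM.

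In the ICM preparation against late 2-cell control, 6 of 9 genes were higher and 1 was lower, against 24.7% and 47.3% of 13636 genes. Krt8 was higher by 6.33, a 103-fold ratio of FPKM, Krt18 by 5.99, a 67.6-fold ratio, Cldn4 by 5.37, a 49.3-fold ratio, and Aqp3 by 2.85, an 8.01-fold ratio. Fabp3 and Aqp8 were called higher too, with control listed at 0. Tjp1 was lower, at -1.55. Atp1b1, at 0.21, and Cdh1, at -0.27, did not reach the threshold, and the sign of Atp1b1 was not stable, at -0.05 with the median shift taken out. Both ICM values of each straddled or lay within the late 2-cell range described above. The median difference over the genes was 4.90, with those listed at 0 in control included, against -0.85 over all genes, and the median shift was 0.26. The counts were the same with either ICM replicate left out and with the shift taken out. The call of Tjp1 was close to the threshold in 1 of these, at -1.01 without replicate 2 and -2.09 without replicate 1. Stage, library protocol and deposited table coincide in this step and cannot be told apart, and an exact permutation test of 2 libraries against 1 cannot give a p below 0.333, so none was run.

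**Figure D4:**
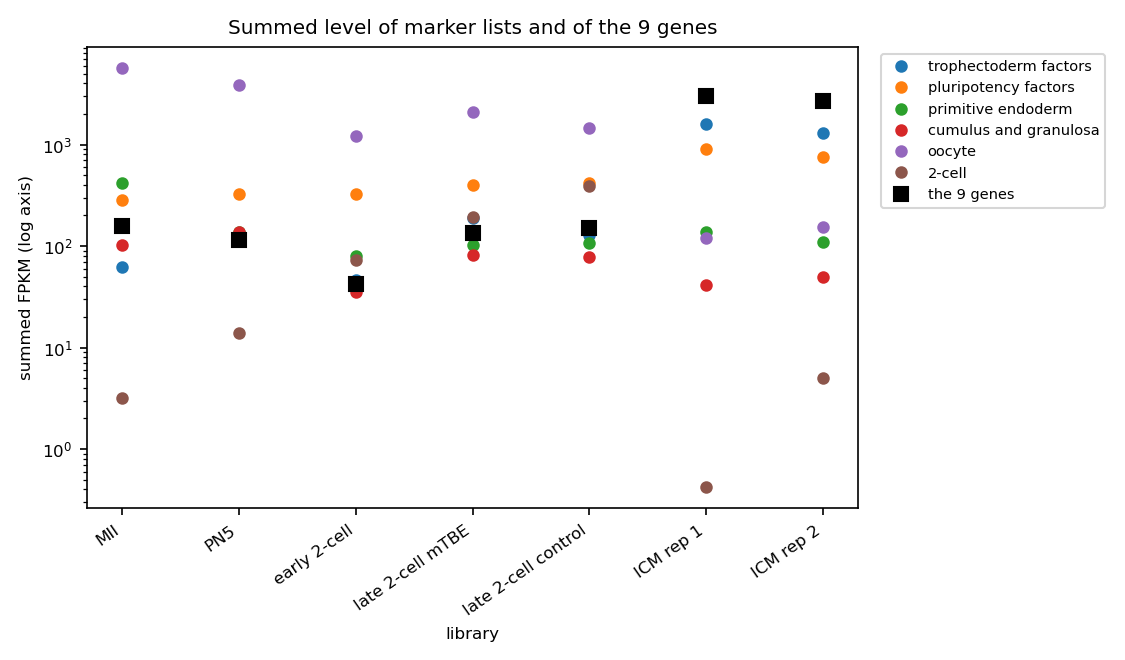
Summed FPKM, on a logarithmic axis, of the 6 marker lists (circles) and of the 9 genes (squares) in each library. In the ICM libraries the 9 genes summed to 2980 and 2661 FPKM and the trophectoderm list to 1576 and 1287 FPKM, both above every earlier library, while the oocyte list was highest in MII at 5680 FPKM.

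The trophectoderm list, which shares no gene with the 9, was also highest in the ICM libraries. Its summed level was 61.8 FPKM in MII, 122 in PN5, 46.7 in early 2-cell embryos, 189 in mTBE, 127 in control, and 1576 and 1287 in the ICM libraries, and it was at 1 FPKM or more for 15 of 16 genes in mTBE and 14 of 16 in control. Id2, an inhibitor of basic helix-loop-helix factors, was at 563 and 440 FPKM in the ICM libraries, Tspan8, a tetraspanin, at 383 and 293 FPKM, and Gata3, a trophectoderm factor, at 145 and 127 FPKM. The pluripotency list summed to 905 and 749 FPKM in the ICM libraries, against 403 in mTBE and 420 in control, of which Pou5f1, a factor also present in the oocyte, made 280 and 163 FPKM in the ICM libraries, 236 in mTBE and 203 in control. Of its 12 genes 6 were higher and 2 lower in the ICM preparation than in control, against 24.7% and 47.3% of all genes. Nanog was at 105 and 133 FPKM in the ICM libraries and 1.84 FPKM in control. Utf1, another pluripotency gene, was at 118 and 155 FPKM in the ICM libraries and 3.71 FPKM in control. Replicate 1 had the higher trophectoderm sum, the higher pluripotency sum and the higher sum of the 9 genes. It also had the higher value for 67.2% of the genes at 1 FPKM or more in either ICM library. Cumulus cells, which surround the oocyte, were checked as well. Of 15 of their markers 2 reached 1 FPKM in MII, PN5, early 2-cell embryos and each ICM library, 7 in mTBE and 6 in control. Their summed level was 102 FPKM in MII, 137 in PN5, 35.5 in early 2-cell embryos, 81.2 in mTBE, 78.6 in control, and 40.9 and 49.9 in the ICM libraries, most of it in every library Serpine2, a protease inhibitor, at 33.5 and 40.1 FPKM in the ICM libraries.

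**Figure D5:**
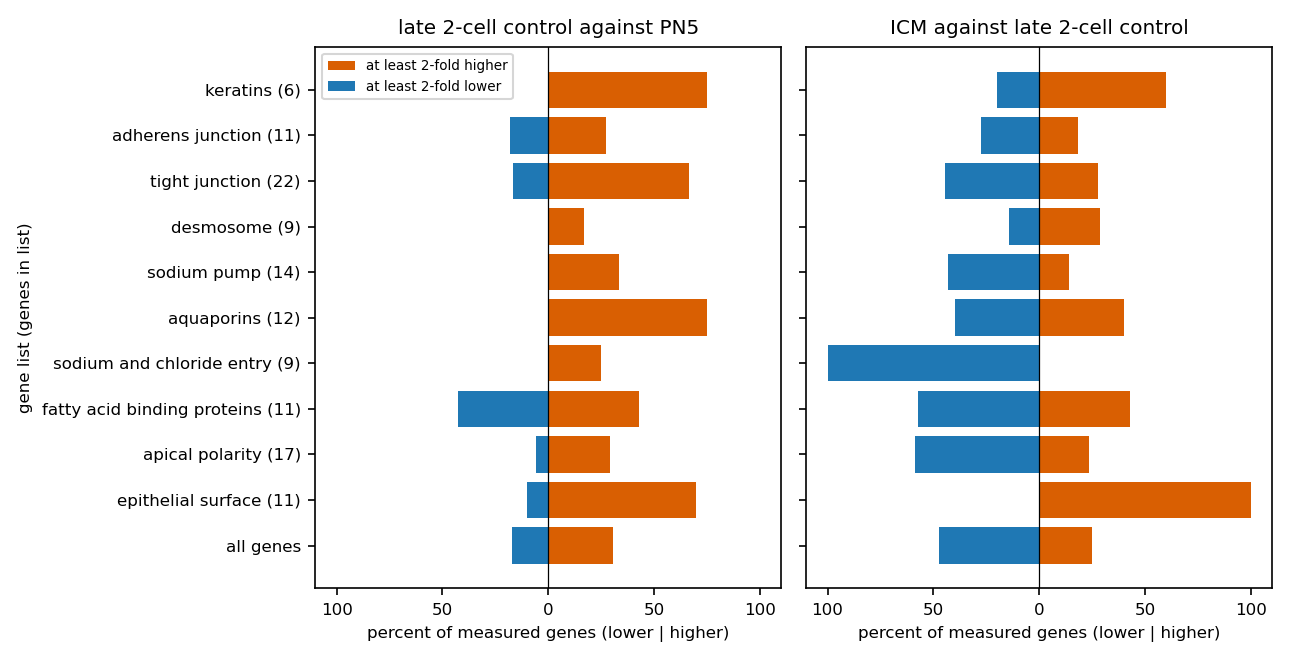
Percent of the measured genes of each of 10 lists (rows, with the number of genes in the list) that were at least 2-fold higher (right of 0) or lower (left of 0) on the log2(FPKM + 1) scale, in late 2-cell control against PN5 (left) and in the ICM preparation against late 2-cell control (right); the bottom bar gives all genes. In the right panel 11 of 11 epithelial surface genes were higher and 4 of 4 measured sodium and chloride entry genes were lower.

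Lists of related genes placed the 9 in their pathways, and each list that a gene belongs to includes it. In late 2-cell control against PN5, where 30.5% of all genes were higher, 3 of 4 measured keratins, 12 of 18 tight junction genes, 3 of 4 aquaporins and 7 of 10 epithelial surface genes were higher. The median differences of these lists were 1.81, 1.31, 2.07 and 1.35, against 0.28 over all genes; without the keratins listed at 0 in PN5 the first was 1.36. The other lists had 3 of 11 adherens junction genes, 1 of 6 desmosome genes, 2 of 6 sodium pump genes, 1 of 4 sodium and chloride entry genes, 3 of 7 fatty acid binding proteins and 5 of 17 apical polarity genes higher. Lower in control than in PN5, where 17.0% of all genes were, were 3 of 7 fatty acid binding proteins, 3 of 18 tight junction genes, 2 of 11 adherens junction genes, 1 of 17 apical polarity genes and 1 of 10 epithelial surface genes. The median difference of the fatty acid binding proteins was -0.75. Among tight junction genes, Cldn6 was at 27.5 FPKM in control and 0.171 FPKM in PN5, and F11r, the junctional adhesion molecule JAM-A, at 28.6 FPKM in control and 0.600 FPKM in PN5. Epcam was at 34.4 FPKM in control and 0.241 FPKM in PN5.

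In the ICM preparation against late 2-cell control the lists separated. All 11 epithelial surface genes were higher, against 24.7% of all genes, with Epcam at 645 and 565 FPKM in the ICM libraries, Cd9, a tetraspanin, at 577 and 747 FPKM, S100a10 at 274 and 247 FPKM and its partner Anxa2 at 252 and 181 FPKM, against 34.4, 30.8, 1.76 and 4.15 FPKM in control. Among keratins 3 of 5 were higher and 1 lower. Among tight junction genes 5 of 18 were higher and 8 lower, against 47.3% of all genes lower, and the higher ones were Marveld3, F11r, Cldn4, Cldn6 and Cldn7; Cldn7 was at 317 and 323 FPKM in the ICM libraries and 8.75 FPKM in control. Among adherens junction genes 2 of 11 were higher and 3 lower, with Ctnna1, alpha-catenin, at 93.1 and 67.2 FPKM in the ICM libraries and 31.6 FPKM in control, and Ctnnb1, beta-catenin, at 58.3 and 52.6 FPKM in the ICM libraries and 68.0 FPKM in control. Of 7 desmosome genes 2 were higher and 1 lower, with Perp at 78.1 and 59.1 FPKM in the ICM libraries and 1.22 FPKM in control, and Pkp4 at 7.23 and 4.29 FPKM in the ICM libraries and 85.6 FPKM in control.

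The sodium pump and aquaporin lists held genes that were higher and genes that were lower in the ICM preparation. The sodium and chloride entry list held lower genes only. Over all genes 24.7% were higher and 47.3% lower in this step. Of 7 sodium pump genes 1 was higher and 3 lower. The higher one, Fxyd4, a small regulator of the pump, was at 45.6 and 23.5 FPKM in the ICM libraries and listed at 0 in both late 2-cell libraries. Of 5 aquaporins Aqp3 and Aqp8 were higher and Aqp9 and Aqp11 lower. Of 4 sodium and chloride entry genes 4 were lower, among them Slc12a2, at 2.55 and 1.97 FPKM in the ICM libraries and 47.8 FPKM in control. Slc9a3 and Cftr were listed at 0 in both ICM libraries, with 13.9 and 3.83 FPKM in control. Of 17 apical polarity genes 4 were higher and 10 lower, with Rdx, radixin, at 33.3 and 10.5 FPKM in the ICM libraries, against 122 FPKM in control and Pard3, a polarity scaffold, at 9.41 and 4.02 FPKM in the ICM libraries and 202 FPKM in control. The median differences of the pump, aquaporin and polarity lists were -0.31, -0.996 and -1.30, against -0.85 over all genes, and that of sodium and chloride entry was -3.73. Without genes listed at 0 in 1 of the groups, the pump, aquaporin and sodium and chloride entry medians were -0.74, -1.26 and -3.74. Of 7 fatty acid binding proteins 3 were higher and 4 lower.

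Finally, the genes whose profile was most like that of each of the 9 were found by Euclidean distance of log2(FPKM + 1) over the 7 libraries, among 15123 genes. The nearest were Tspan8 to Krt8, at a distance of 0.97, Calcoco2 to Krt18, at 0.90, Gm5148 to Fabp3, at 0.81, Dctd to Atp1b1, at 0.63, Ndrg1 to Aqp3, at 1.01, Apoa1 to Aqp8, at 0.65, Timm13 to Cldn4, at 1.43, Pdia4 to Cdh1, at 0.74, and Smad4 to Tjp1, at 0.63. Cldn7 was the second nearest to Krt8, at 1.21, and Atp1b3 the second nearest to Cdh1, at 0.90. Among the 9 genes themselves the closest pair was Atp1b1 and Cdh1, at 2.63, followed by Krt8 and Krt18, at 3.21, and the farthest was Fabp3 and Tjp1, at 14.4. The distances use the absolute level as well as the shape of the profile, and the libraries share stage and protocol.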

How the data were processed

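RNA was measured in 7 libraries of mouse oocytes and embryos; 109 further samples of the series were left aside (not analysed here). FPKM values were deposited by the authors per gene symbol in 4 tables: PN5 and both late 2-cell libraries in 1, both ICM libraries in another and MII and early 2-cell in 1 each, so tables were normalized separately. Levels set across them carry that limit. Tools listed in the submitters' processing notes are TopHat2 2.1.1, Cufflinks 2.1.1 and CASAVA 1.8, and the build listed there is mm9, with no role for each. How multi-mapped reads and strand were handled is not given in the sources used here. The name of the MII column is also the title of a chromatin sample, but the file belongs to the MII RNA sample in the record. The number of value columns without a sample was 0.

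Repeated symbols (497 in the table of PN5 and the late 2-cell libraries, 495 each in those of MII and the early 2-cell, 0 for the ICM) were summed, leaving 24028 shared symbols. Differences used log2(FPKM + 1), a pseudocount of 1 FPKM, which understates the change of low genes, and a minimum of 1 FPKM in at least 1 library. ICM values were averaged on that scale. The median shift was taken over genes at 5 FPKM or more in both groups. Python 3.11.15, pandas 2.3.3, numpy 2.4.6 and matplotlib 3.10.9 were used. The calculation was run on a copy of the control library with set changes in some genes. That copy had no added noise and no changed low gene, so it checks the arithmetic only. The depth of the total RNA libraries is unknown, since low values did not fall on steps: 9 of 580 genes lay at the commonest ratio of mTBE to control, 7 of 759 at that of PN5 to control and 14 of 2244 at that of early 2-cell to MII. In the ICM libraries 199 of 1972 genes under 0.3 FPKM lay at 1 ratio of replicate 1 to replicate 2, 0.474.

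Named genes were the 9, the 3 nearest in profile to each, up to 4 further genes per list with the highest FPKM, the pump subunit Atp1b3, and per marker list the 4 highest in the ICM (2 for oocyte and 2-cell genes). Defining markers were named as well. Some genes that this rule names are not reported here. Single genes of a list outside that rule (Marveld3, Sox7, Foxa2) were named after their values were seen. The 9 genes, the 10 gene lists and the 6 marker lists were chosen with earlier results of these data known. Promoters came from RefSeq, build GRCm38.p6, with 8 of 9 genes matched; the build in the notes is mm9, and no coordinate was carried between the builds. The alternatives were another pseudocount, other minimum levels, no minimum, rescaling, median centring, the highest of repeated symbols in place of their sum, and each ICM replicate left out. For mTBE against PN5, PN5 against MII and early 2-cell against MII these were added after seeing the data.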

Additional observations from a re-analysis of the deposited data

How the results depend on the processing

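Of the recomputed counts of the 9 genes, which cover 7 comparisons and the onset classes, 100 stayed within 1.5 times the reported count and 11 did not. Leaving out the minimum cannot change a count, because a gene under 1 FPKM in every library compared cannot reach a difference of 1. With values rescaled to a common sum, 1 gene was higher in mTBE than in control, in place of 0; this was Aqp8, which the rescaling lifted above the minimum. The alternatives for the next 3 comparisons were chosen after seeing the data. With rescaling or with the median shift taken out, 0 genes were higher in PN5 than in MII, in place of 1. In the early 2-cell against MII, 2 genes were higher with rescaling, 1 with the shift taken out and 1 with a pseudocount of 0.1 FPKM, in place of 0. In mTBE against PN5, 0 genes were lower with the shift taken out, in place of 1. With onset taken at 2-fold in place of 4-fold above MII, 1 gene, Atp1b1, was first in PN5, in place of 0. With a threshold of 0.5 FPKM, 2 genes were first present in the early 2-cell, in place of 1, and 1 in the late 2-cell, in place of 2. With a threshold of 5 FPKM, 0 genes were first present in the early 2-cell. With either ICM replicate left out, 6 genes were higher and 1 lower in the ICM preparation than in control. The lower gene, Tjp1, was at -2.09 without replicate 1 and at -1.01, close to the threshold, without replicate 2.

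Of the recomputed differences of single genes, 220 moved by less than the spread of the ICM pair and 69 by more. Changing or leaving out the minimum level cannot move a difference, and taking the highest of repeated symbols moved none of these. Such alternatives are all among the 220, which is therefore not a measure of stability. No difference past the size rule changed sign. Below it, Tjp1 in control against the early 2-cell was -0.40 with rescaling and -0.27 with the shift taken out, in place of 0.30. Atp1b1 in the ICM preparation against control was -0.18, -0.05 and, without ICM replicate 1, -0.04, in place of 0.21. Of the counts over all genes, 74 stayed within 1.5 times and 14 did not.

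No paired analysis was possible because the groups compared share fewer than 2 replicate numbers. Depth could not be recovered for the total RNA libraries, so no counting error can be given for values under 1 FPKM there.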

Other observations

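Several of the 9 genes lie beside a relative in the mouse genome, and the relatives were read across the same libraries; these neighbours were chosen after the values of the 9 had been seen, with gene order taken from GRCm38. Krt8 and Krt18 are neighbours on chromosome 15, and the keratin on the other side of Krt8, Krt78, was at 0.488 FPKM or less in every library. Cldn4 lies beside Cldn3, a claudin listed at 0 in MII, PN5 and the early 2-cell and at 17.5 FPKM in mTBE, 10.3 FPKM in control, and 13.6 and 24.3 FPKM in the ICM libraries. Cldn4 itself was at 247 and 263 FPKM in the ICM libraries. Aqp3 lies beside Aqp7, which was at 0.681 and 0.852 FPKM in the ICM libraries and at 0.135 FPKM or less in every other library. Cdh1 lies beside Cdh3, which encodes P-cadherin; Cdh3 was at 0.870 and 0.967 FPKM in the ICM libraries, against 18.9 FPKM in control, whereas Cdh1 was at 52.9 and 40.5 FPKM in the ICM libraries, against 55.9 FPKM in control.

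The cellular retinoic acid binding protein Crabp2, a relative of Fabp3, was higher in every earlier library than in the ICM libraries: it was at 61.4 FPKM in MII, 66.9 in PN5, 63.0 in early 2-cell embryos, 35.6 in mTBE, 25.3 in control, and 0.252 in ICM replicate 1, and was listed at 0 in ICM replicate 2. Its relative Crabp1 was listed at 0 in MII and in both ICM libraries and was at 6.57 FPKM in mTBE and 4.93 FPKM in control.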
